A study of Drosophila melanogaster with 3 samples.

Results

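The genes examined were 10 Drosophila genes for basic leucine zipper (bZIP) transcription factors, namely Atf3, kay, Jra, crc, Xbp1, CrebA, CrebB, cnc, vri and Pdp1, among 13945 protein-coding genes on the chromosome arms X, 2L, 2R, 3L, 3R and 4. They were taken by name, with earlier results of these data known, and all 10 were found in the annotation. The peaks examined were all those with a summit inside the gene or at most 1000 bp away from one of its transcription start sites (TSSs). The peaks are calls, strong and weak, of places where the ETS-family transcription factor Ets65A may have sat on chromatin. They came from chromatin immunoprecipitation and sequencing of whole embryos of mixed sex, aged 0 to 24 h, from a transgenic line (strain ets3-GFP) that stably carries Ets65A with GFP at its C-terminus. The precipitation is labelled as anti-GFP, although the antibody field names Ets65A itself. All libraries formed 1 group, with 3 biological replicates and 1 technical replicate each, so no condition was compared with another. The embryos were not dissected or sorted, so a peak cannot be assigned to a tissue or an hour of development, and the labels do not say whether untagged Ets65A was also present.

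Factors of the bZIP class bind DNA as dimers, through a basic region that reads the major groove and a leucine zipper that holds the partners together. Which partners join decides which sequence is bound, so the family is often described as a network rather than as separate factors. Several members respond to stress: Fos and Jun to Jun kinase (JNK) signalling, ATF4 and Xbp1 to trouble in protein synthesis and folding, and the Nrf2 class to oxidants. In the embryo others have developmental roles, such as head segmentation for cnc and the secretory machinery of glands and epidermis for CrebA.

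Ets65A-eGFP peaks were present at most of these genes. Of the 10 genes, 9 had at least 1 peak in the authors' list of peaks that passed their threshold of irreproducible discovery rate (IDR peaks), against 20.2% of all protein-coding genes. With the TSS alone, 7 of the 10 had an IDR summit within 1000 bp, against 17.9% of all protein-coding genes. The exception was Jra, which had none by either count, while kay and Pdp1 had IDR peaks in introns and none within 1000 bp of a TSS. The bZIP genes were long, with a median span of 20050 bp against 2166 bp for all protein-coding genes. Among genes of 8000 bp or more, all 8 of these members had an IDR peak, against 36.3% of all genes of that length. Of the 2 shorter members, Xbp1 had one and Jra did not, against 17.0% of all shorter genes. Counted by start site, 13 of the 33 distinct TSSs of the 10 genes (39.4%) had an IDR summit within 1000 bp, against 17.4% of 19607 TSSs of all protein-coding genes. The 13 TSSs shared 8 IDR summits, since start sites close together can lie near the same summit.

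The IDR list held 2780 peaks and the pooled list, called on the 3 replicates together, held 28940. The lowest -log10 q was 3.23 in the IDR list and 0.0177 in the pooled list. A weak pooled peak is thus little evidence of binding. The IDR peaks were also the 2780 pooled peaks of highest signal value, a score given by the authors whose scale is not stated. Each replicate's own list stopped at 30000 peaks and ran down to a -log10 q of 0.0728, 0.101 and 0.179 in replicates 1, 2 and 3, so presence in a list is weak evidence and the rank is given instead. Median signal values were 10.8, 10.8 and 11.0 over the whole lists of replicates 1, 2 and 3, and 29.6, 44.4 and 39.5 over the 2780 strongest peaks of each. The lists thus differed at their strong end, so a mean ± SD of replicate signal values includes that difference, and ranks are given beside it. Peak lists carry no read counts, and the depth behind each value is therefore unknown.

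At the 10 genes there were 96 pooled peaks, of which 12 were IDR peaks. All 10 genes had a pooled peak, against 68.8% of all protein-coding genes. The 12 IDR peaks had signal values from 80.0 to 548.7 with a median of 115.4, against a median of 110.2 over all 2780, and 7 of the 12 were above that median. Of these 12 summits, 8 were in introns, 4 were between genes and 0 were in exons. Of the 12, 8 lay within 1000 bp of a TSS and 6 within 500 bp. These places are given without the shares over all 2780 IDR peaks, so they do not set the bZIP genes apart. Nearest to the limit were the crc peak, 776 bp from its TSS, and the kay peak, 1128 bp from its TSS and kept because it is inside the gene.

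**Figure D1:**
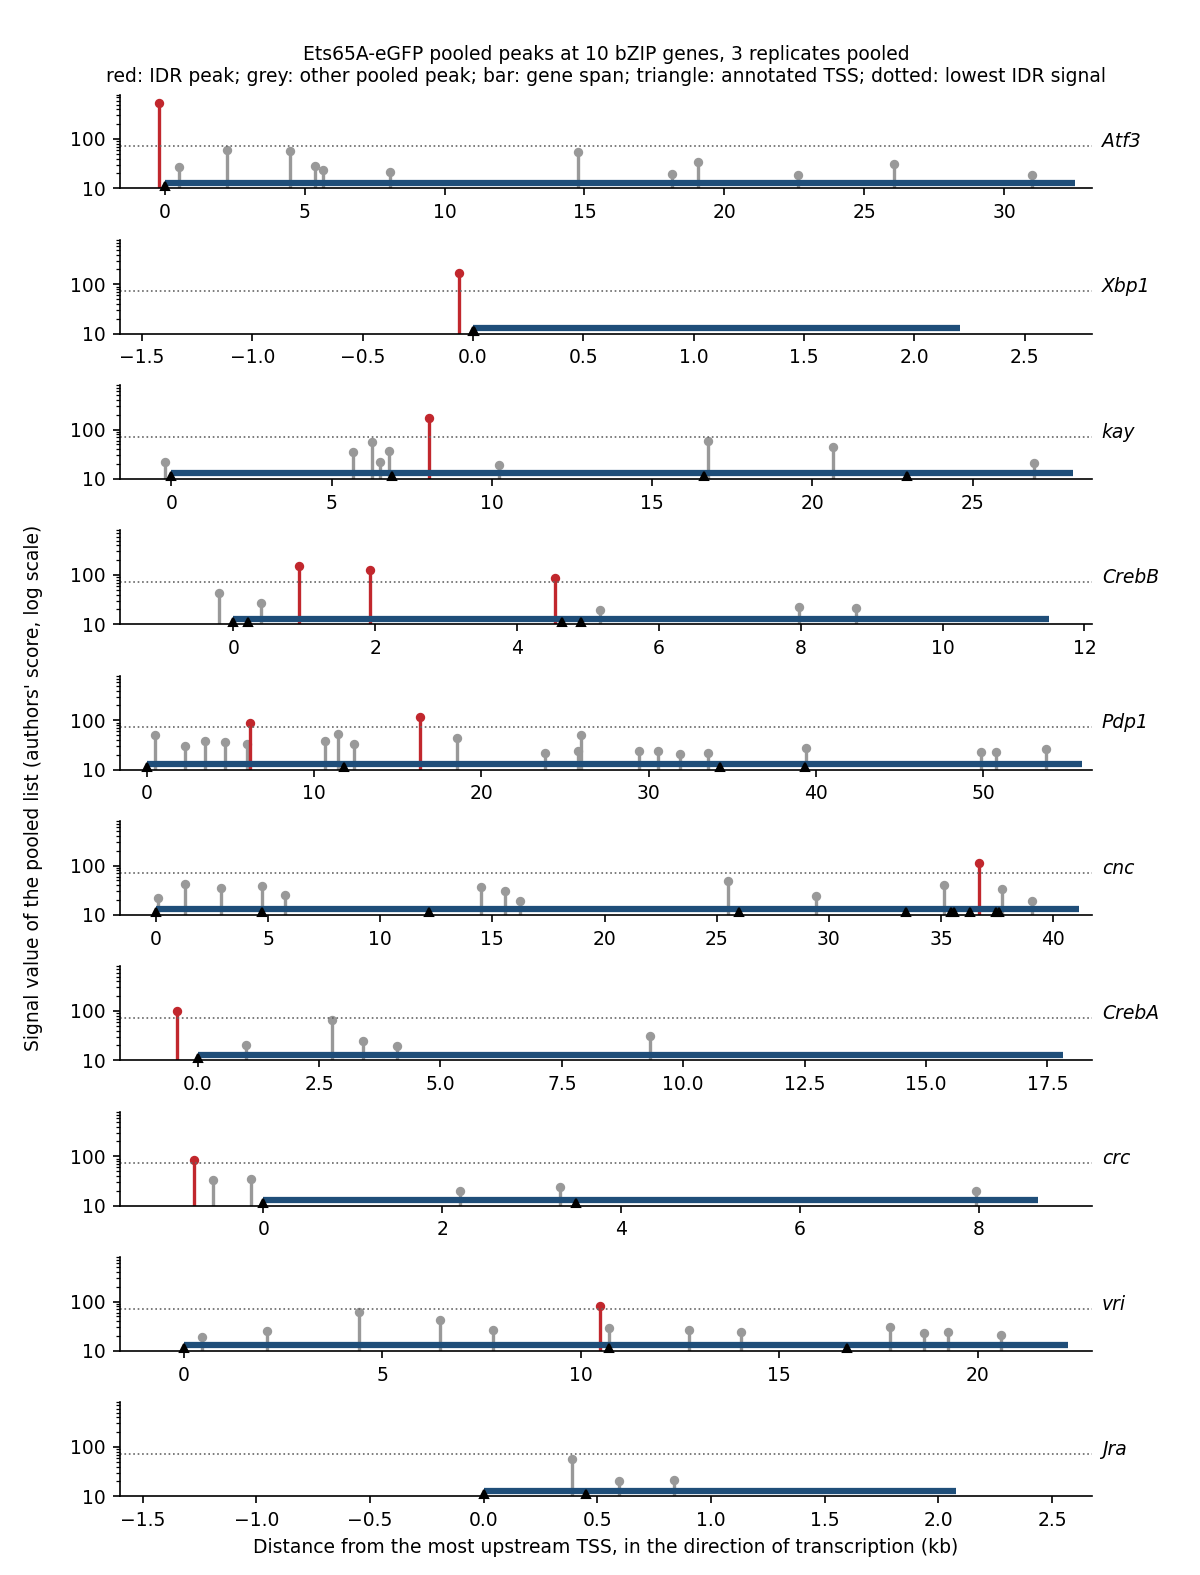
Signal value (log scale) of every pooled peak at each of the 10 genes, against the distance of its summit from the gene's most upstream TSS in kb. Red stems are IDR peaks, grey stems the other pooled peaks, blue bars the gene spans, triangles the annotated TSSs and the dotted line the lowest signal value of any IDR peak (71.8). Atf3 has 1 peak of 548.7 just upstream of its TSS, CrebB has 3 IDR peaks in its first part, and Jra has none above the line.

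The sequences at the centre of 6 of the IDR peaks show what kind of DNA the tagged factor was found on. They are the strongest peak (Atf3), the kay intron peak, the stronger pair of CrebB peaks, the stronger of the Pdp1 peaks and the cnc peak at internal start sites. The window of the weaker Pdp1 peak, not shown, held no match to the marked motifs. Each is 201 bases long, the summit with 100 bases either side, read 5′ to 3′ on the strand of the gene from the RefSeq release of the dm6 genome. Capitals mark matches, on either strand, to the motifs searched, except the loose pattern TTNNNNAA.
Atf3 upstream peak, chrX:1275405-1275605, minus strand: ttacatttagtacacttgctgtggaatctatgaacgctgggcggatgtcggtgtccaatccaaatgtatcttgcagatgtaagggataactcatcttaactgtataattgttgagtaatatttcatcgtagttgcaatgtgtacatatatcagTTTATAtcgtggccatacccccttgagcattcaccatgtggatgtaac
kay intron peak, chr3R:29773920-29774120, plus strand: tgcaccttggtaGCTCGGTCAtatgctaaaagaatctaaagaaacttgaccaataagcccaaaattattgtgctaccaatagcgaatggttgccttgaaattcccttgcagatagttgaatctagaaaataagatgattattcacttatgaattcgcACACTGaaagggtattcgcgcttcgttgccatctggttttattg
CrebB strongest intron peak, chrX:18367188-18367388, plus strand: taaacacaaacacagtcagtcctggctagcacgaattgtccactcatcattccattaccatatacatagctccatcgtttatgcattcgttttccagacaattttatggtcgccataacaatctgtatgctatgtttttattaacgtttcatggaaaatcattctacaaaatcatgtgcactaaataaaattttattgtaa
CrebB next intron peak, chrX:18368184-18368384, plus strand: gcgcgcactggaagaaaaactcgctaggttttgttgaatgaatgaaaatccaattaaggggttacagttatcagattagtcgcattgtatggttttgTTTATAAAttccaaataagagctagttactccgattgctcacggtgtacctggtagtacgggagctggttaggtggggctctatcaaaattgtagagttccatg
cnc intron peak, chr3R:23189925-23190125, minus strand: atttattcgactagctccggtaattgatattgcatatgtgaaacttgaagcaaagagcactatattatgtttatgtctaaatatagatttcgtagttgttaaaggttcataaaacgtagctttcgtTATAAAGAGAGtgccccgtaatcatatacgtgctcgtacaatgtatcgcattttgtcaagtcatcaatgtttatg
Pdp1 strongest intron peak, chr3L:7850943-7851143, minus strand: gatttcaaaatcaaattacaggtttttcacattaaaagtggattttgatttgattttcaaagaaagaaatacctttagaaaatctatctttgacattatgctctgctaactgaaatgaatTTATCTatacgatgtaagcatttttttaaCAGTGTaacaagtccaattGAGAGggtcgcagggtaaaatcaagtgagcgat
In the Atf3 window the capitals are a TATA box (TATAAA) on the opposite strand, and in the second CrebB window TATA boxes on both strands that overlap. The kay window holds TGACNNNGC, the core of the antioxidant response element bound by cnc with small Maf proteins, on the opposite strand, and the word ACACTG. In the cnc window a TATA box is followed directly by GAGAG, the site of the GAGA factor. The Pdp1 window holds AGATAA (the GATA site), ACACTG and GAGAG, the first pair on the opposite strand. The strongest CrebB window holds no marked match.

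None of the 12 windows of 201 bases held the ETS core CCGGAA, which was in 5.61% of all IDR windows and in 5.83% of 19252 windows of the same length centred on TSSs. Over the whole peak intervals the count was also 0, against 9.71% of all IDR peaks. The longer ETS site CCGGAAGT, which contains the core, was likewise absent, against 0.719% of all IDR windows and 0.208% of TSS windows. At shares this low, 12 windows are too few to set a count of 0 apart, and a missing match says only that these letters are not in the windows.

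Sites of bZIP factors were in 0 or 1 of the 12 windows, apart from the loosest pattern. With 12 windows, such counts cannot be set apart from the shares over all windows given beside them. The AP-1 site TGANTCA (4.75% of all IDR windows, 3.79% of TSS windows), the CRE site TGACGTCA (0.396% and 0.275%) and the short site ACGTGG, also the core read by Xbp1 (3.88% and 4.26%), were in 0 of 12 windows. The site of the PAR class of bZIP factors, TTANNTAA, to which Pdp1 belongs, was in 0 of 12, against 17.0% of all IDR windows and 11.4% of TSS windows. The antioxidant core was in 1 of 12 (kay), against 5.58% and 6.49%. The loose C/EBP pattern TTNNNNAA, which takes in TTANNTAA, was in 12 of 12, but also in 87.3% of all IDR windows and 76.6% of TSS windows. Matches on both strands were counted throughout.

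Of the promoter elements, the TATA box was in 4 of 12 windows (Atf3, 1 of CrebB, cnc and vri), against 29.6% of all IDR windows and 26.9% of TSS windows. GAGAG was in 2 (cnc and Pdp1), against 22.6% and 25.0%, and AGATAA in 1 (Pdp1), against 12.1% and 10.6%. The Dref element TATCGATA was in 0 of 12 (5.83% and 6.45%), the E-box CACGTG in 0 of 12 (2.66% and 2.80%), and GGTCACAC, bound by M1BP, in 1 of 12 (3.88% and 5.68%), at the CrebB peak nearest a TSS. Of 4 words chosen after the data were seen, ACACTG was in 2 windows (kay and Pdp1), against 23.1% and 14.2%. TATCGA, the first bases of the Dref element, was in 2 (CrebB and Xbp1), against 18.9% and 20.2%, CGATAG, which overlaps the same element, in 1 (Xbp1), against 14.6% and 14.4%, and ACTAGT in 0, against 4.21% and 3.42%. The windows had a median GC content of 33.3% (range 28.4 to 49.8), against 37.3% for all IDR windows and 42.3% for TSS windows.

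Atf3 carried the strongest site of the 10 genes. Atf3 encodes the fly counterpart of mammalian ATF3, a factor of stress, immune and metabolic balance that can pair with Jun. The gene (FBgn0028550, chrX:1242740-1275284, minus strand) has a single TSS shared by its 3 transcripts, and the summit lay 221 bp upstream of it, between genes (peak chrX:1275339-1275684), with a signal value of 548.7 and rank 38 in the pooled list. It ranked 31, 52 and 42 in replicates 1, 2 and 3, with signal values of 172, 197 and 181 (183 ± 12.2, SD, n = 3). All 3 ranks were near the top of lists of 30000. They lay clear of those of every other peak at the 10 genes, the best of which was 316.

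The rest of Atf3 held 12 weaker pooled peaks, none of them in the IDR list. The strongest of these had 60.9, in the intron 2237 bp downstream of the TSS, with ranks of 3702, 3533 and 2762. The upstream peak was thus 9.01-fold stronger than the next and held 58.2% of the summed signal of the gene's pooled peaks. By rank over the 3 replicates, the protein-coding genes whose strongest peak near a TSS was most like that of Atf3 were CG6966, Alg3 (a mannosyltransferase of N-glycan assembly), and CG8372 and CG8360, which share a peak. The measure was the absolute difference in log2 rank summed over the 3 replicates, and it came to 0.47 for CG6966, 0.60 for Alg3 and 0.63 for the peak of CG8372 and CG8360. The pooled signal values were 561.8, 533.3 and 518.1.

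The partners kay and Jra encode Fos and Jun and together form AP-1, the factor through which JNK signalling drives dorsal closure of the embryo. Neither had an IDR summit within 1000 bp of a TSS, and kay alone had an IDR peak inside the gene. The strongest pooled peaks within 1000 bp of a TSS were 58.7 for kay and 55.8 for Jra, which span 28119 and 2077 bp. kay (FBgn0001297, chr3R:29765995-29794113, plus strand) had an IDR peak with a signal value of 168.5 and pooled rank 621 (chr3R:29773825-29774214). Its summit was in an intron, 1128 bp downstream of the second of 4 TSSs, that of kay-RA and kay-RG. In replicates 1, 2 and 3 it ranked 639, 535 and 803, with signal values of 46.0, 71.1 and 51.8 (56.3 ± 13.1, SD, n = 3). All 3 replicates placed it in the top part of their lists, well inside the strongest 2780.

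None of the 4 kay start sites had an IDR summit within 1000 bp. The next strongest kay peak, at 58.7, lay 138 bp downstream of the TSS of kay-RB, in its 5′ UTR, with ranks of 7515 and 1283 in replicates 2 and 3 and no overlapping peak in replicate 1. Another at 55.2 was 627 bp upstream of the TSS of kay-RA and ranked 1682, 8745 and 15744 in replicates 1, 2 and 3. Both varied far more between replicates than the intron peak did.

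Jra (FBgn0001291, chr2R:10096480-10098556, plus strand) had 3 overlapping pooled peaks and no IDR peak. The strongest had a signal value of 55.8 and pooled rank 4026, 58 bp upstream of the TSS of Jra-RA and Jra-RC, with ranks of 5361, 5226 and 3126 in the replicates. Its 3 replicate peaks were thus all found, and all lay outside the strongest 2780. The nearest IDR summit was 1103 bp beyond the 3′ end of Jra, with a signal value of 145.6 and pooled rank 813, within 1000 bp of the TSS of RpLP0-like and of another gene, and did not count as a Jra peak.

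The factors of protein stress had a peak at their start sites each, of different strength. Xbp1 encodes the factor of the unfolded protein response whose mRNA is spliced by the endoplasmic reticulum sensor Ire1. The gene is short (FBgn0021872, chr2R:21143545-21145750, plus strand), and its only pooled peak (chr2R:21143287-21143676) was an IDR peak of 170.8 (pooled rank 598), 63 bp upstream of the TSS of Xbp1-RE. It ranked 1152, 581 and 316 in replicates 1, 2 and 3, with signal values of 33.4, 68.4 and 77.0 (59.6 ± 23.1, SD, n = 3). All were among the strongest 2780, and replicate 1 was the lowest on both scales.

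The gene crc encodes ATF4, whose translation rises when eIF2alpha is phosphorylated in the integrated stress response. Its IDR peak (FBgn0000370, gene chr2L:21310866-21319527, plus strand; peak chr2L:21309895-21310284) had a signal value of 83.8 and pooled rank 2214. The summit was between genes, 776 bp upstream of crc-RA, and also within 1000 bp of a TSS of Mondo, which encodes a sugar-sensing factor, so it cannot be assigned to either gene. In replicates 1, 2 and 3 it ranked 1408, 3736 and 3199, so that only replicate 1 had it among its strongest 2780. A second pooled peak at 32.8, centred 563 bp upstream of crc-RA, overlapped the same 3 replicate peaks. At the other crc start site, that of crc-RB, the strongest pooled peak was 24.1.

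The CREB genes differed in number of sites. CrebA encodes a factor that raises the expression of secretory pathway genes in glands and epidermis. Its IDR peak (FBgn0004396, gene chr3L:15535395-15553214, plus strand; peak chr3L:15534783-15535172) lay between genes, 417 bp upstream of its single TSS, with a signal value of 98.6 and pooled rank 1697. It ranked 2085, 1536 and 2034 in replicates 1, 2 and 3 (signal 32.6 ± 9.37, SD, n = 3). CrebA also had the strongest pooled peak at any of the 10 genes that missed the IDR list, at 65.6 and pooled rank 3199, in an intron 2774 bp downstream of the TSS. That peak ranked 1856 and 2089 in replicates 2 and 3, within their strongest 2780, and had no overlapping peak in replicate 1.

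CrebB encodes the fly CREB, a factor activated through cyclic AMP and protein kinase A and known for its part in long-term memory. It had 3 IDR peaks, the most of the 10 genes, and 138 protein-coding genes (0.990%) had 3 or more. That share is over genes of all lengths, with a median span of 2166 bp, against 11508 bp for CrebB. A share among long genes alone was not taken. CrebB (FBgn0265784, chrX:18366357-18377864, plus strand) has 4 TSSs in 2 clusters. The first IDR peak (chrX:18367093-18367482) had 150.6 and pooled rank 771, in an intron 727 bp downstream of the TSS of CrebB-RI, -RJ and -RO and 931 bp downstream of that of CrebB-RP. The next (chrX:18368089-18368478) had 126.7 and pooled rank 1076, 1723 bp downstream of the same TSS. The last (chrX:18370694-18371083) had 88.7 and pooled rank 2026, 95 bp upstream of the downstream cluster at CrebB-RM, -RN, -RQ and -RR, where the TSS of lncRNA:CR43686 is also within 1000 bp.

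The first CrebB peak ranked 720, 1500 and 527 in replicates 1, 2 and 3. The next ranked 950, 1318 and 1928. The last ranked 1185, 1781 and 5116, so that replicate 3 did not have it among its strongest 2780. The replicate ranks of the 3 peaks overlapped, and their order in the pooled list was not the order in every replicate. Their replicate signal values were 49.5 ± 11.2, 38.9 ± 6.28 and 30.2 ± 9.54 (SD, n = 3 each). Of the other 5 pooled peaks of CrebB the strongest, 42.9, was found in replicate 3 alone.

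The gene cnc encodes several proteins of different length from alternative start sites. The long forms are the Nrf2-like regulators of the oxidant response, held in check by Keap1, and another form acts in the segmentation of the embryonic head. cnc (FBgn0262975, chr3R:23185580-23226711, minus strand) has 10 distinct TSSs and had 14 pooled peaks, 1 of them an IDR peak (chr3R:23189830-23190219) of 112.2 and pooled rank 1342. It lay in an intron, 394 bp downstream of the TSS of cnc-RE, and at -745 bp from that of cnc-RD and cnc-RH and -896 bp from that of cnc-RA. All of these start sites give transcripts with a coding length of 533 residues. It ranked 1705, 1288 and 1124 in replicates 1, 2 and 3 (signal 38.7 ± 10.9, SD, n = 3), each within the strongest 2780.

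At the start site of the longest annotated cnc form, 1430 residues, the strongest pooled peak was 38.6, and at the TSS of cnc-RI, -RM and -RN it was 22.4. The strongest cnc peak outside the IDR list, 48.2, lay 529 bp upstream of cnc-RB, whose form has 805 residues. It ranked 18234, 4705 and 4617 in replicates 1, 2 and 3. Among the cnc start sites, IDR summits within 1000 bp were therefore found at 3 of 10.

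The clock genes vri and Pdp1 encode a repressor and an activator of Clock that bind related sites, and both also act in embryonic development and growth. The IDR peak of vri (FBgn0016076, gene chr2L:5288944-5311223, plus strand; peak chr2L:5299228-5299617) was the weakest of the 12, with 80.0 and pooled rank 2378. It lay in an intron 224 bp upstream of the TSS of vri-RC, the second of 3. In replicate 1 it ranked 14545, against 2109 and 2604 in replicates 2 and 3, and the replicate signal values were 10.9, 34.8 and 28.7 (24.8 ± 12.4, SD, n = 3). The replicates thus did not agree on this peak. Without replicate 1 the mean signal value was 31.7. The same 3 replicate peaks also overlapped a weaker pooled peak of 28.7 at 5 bp from the TSS. Over the whole IDR list, 160 peaks (5.76%) had a rank beyond 10000 in some replicate and 75 (2.70%) were missing from a replicate list.

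Pdp1 (FBgn0016694, chr3L:7811458-7867369, minus strand) was the longest of the genes and had 22 pooled peaks, the most of the 10, and 2 IDR peaks. Both were in introns and far from its 4 TSSs. The stronger (chr3L:7850848-7851237), at 118.6 and pooled rank 1215, was 4505 bp downstream of the TSS of Pdp1-RB and 6 further transcripts, and the other (chr3L:7861002-7861391), at 87.2 and pooled rank 2069, was 5649 bp upstream of it. The stronger ranked 1316, 1205 and 1330 in replicates 1, 2 and 3, the narrowest spread of the 12 in fold terms. The weaker ranked 3693, 2420 and 1721. At the TSSs themselves the strongest pooled peaks were between 22.2 and 52.5.

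The replicate ranks separated genes far apart in the order of signal, and few next to each other. That order comes from the same 3 replicates pooled, so some separation of distant genes is built in. The counts of pairs below stand without a share over other genes. Ordered by pooled signal value the genes were Atf3 (548.7), Xbp1 (170.8), kay (168.5), CrebB (150.6), Pdp1 (118.6), cnc (112.2), CrebA (98.6), crc (83.8), vri (80.0) and Jra (55.8). Of the 9 pairs of neighbours in that order, Atf3 and Xbp1 had replicate ranks that did not overlap, and the other 8 overlapped. In 1 of those 8 the order was nevertheless the same in all 3 replicates, cnc ranking ahead of CrebA. Over all 45 pairs of genes the ranks of 31 did not overlap, 22 of them among the 36 pairs without Atf3. The kay ranks (535 to 803), for example, lay clear of those of Pdp1, cnc, CrebA, crc, vri and Jra, and the Jra ranks (3126 to 5361) clear of all but those of crc and vri. With 3 values a gene, an exact permutation test cannot go below a p of 0.1, and none was run. The median over the 12 peaks of the SD divided by the mean of the replicate signal values was 0.258.

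Of the 12 IDR peaks, 8 were among the strongest 2780 of all 3 replicates, against 59.4% of all IDR peaks. Another 3 (the last of CrebB, vri and the weaker of Pdp1) were so in 2 replicates, and 1 (crc) in 1. All 12 had an overlapping peak in all 3 replicate lists. The median log2 ratio of the poorest to the best replicate rank was 1.06 for the 12 and 1.21 for all IDR peaks with 3 ranks.

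**Figure D2:**
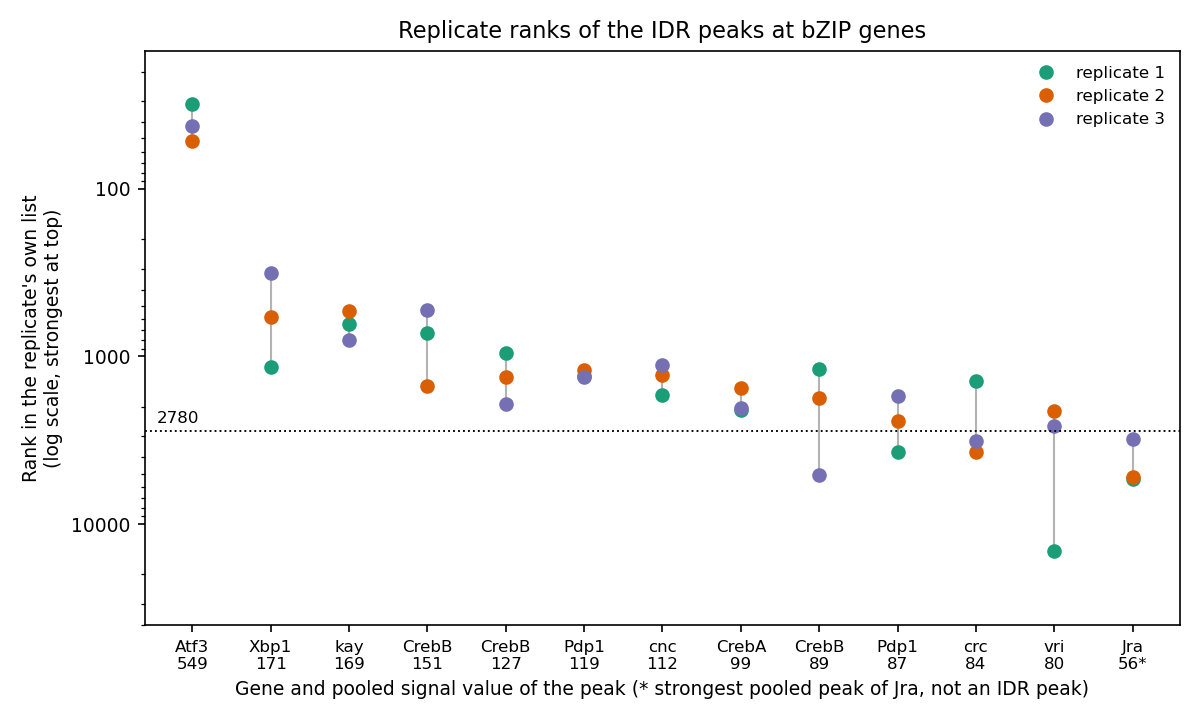
Rank (log scale, strongest at the top) of each IDR peak of the bZIP genes in the own list of replicates 1, 2 and 3, ordered from left to right by pooled signal value, which stands under the gene name. The last column is the strongest pooled peak of Jra, which is not an IDR peak, and the dotted line is rank 2780. Atf3 lies between 31 and 52, the vri peak ranks 14545 in replicate 1, and all 3 ranks of Jra are below the line.

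The 84 pooled peaks outside the IDR list were weak. Their signal values ran from 18.3 to 65.6 with a median of 27.0, against 24.8 for all 26160 pooled peaks outside the IDR list. Of the 84, 12 had a -log10 q of at least 2 and 72 were below it. An overlapping peak was found in 3 replicate lists for 24 of the 84, in 2 for 38, in 1 for 19 and in 0 for 3 (at Atf3, vri and Pdp1). Replicate 1 lacked a peak for 49 of the 96 pooled peaks, replicate 2 for 16 and replicate 3 for 20. The bZIP genes had a median of 3.78 pooled peaks per 10 kb, against 2.43 for all protein-coding genes and 2.32 for genes of 8000 bp or more. Since 16 of the 96 overlapped another pooled peak, the number of separate sites was below the number of peaks. The counts by q, by replicate list and by overlap stand without the shares over all pooled peaks, so they describe these peaks alone.

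**Figure D3:**
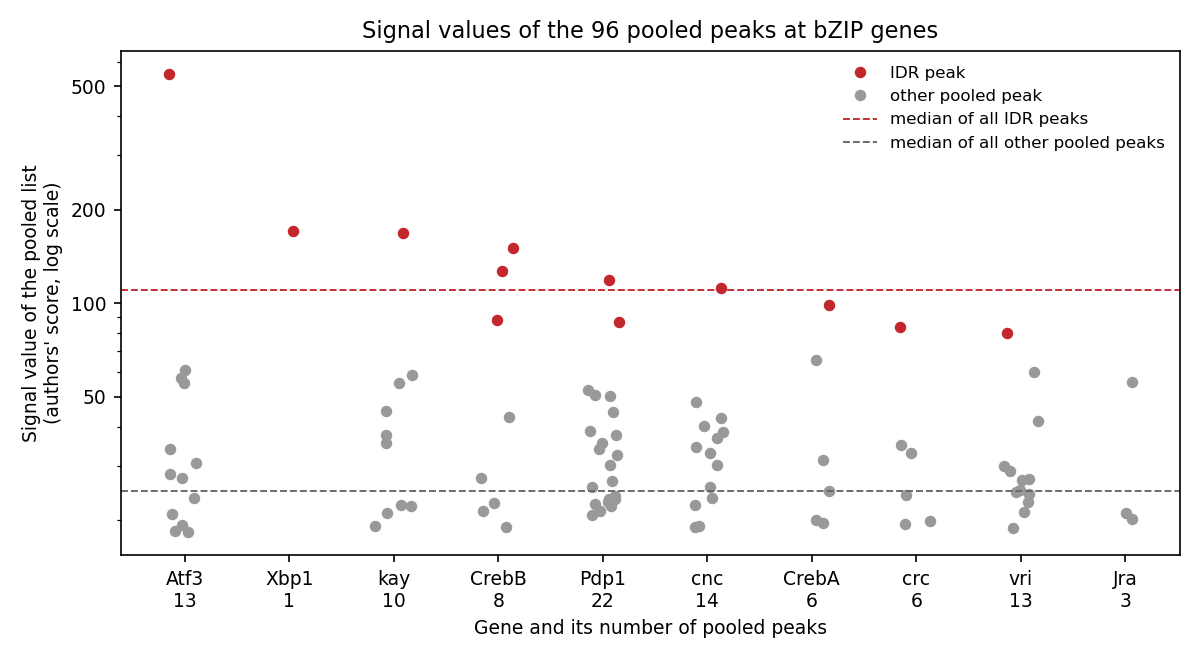
Signal value (log scale) of each of the 96 pooled peaks, by gene, with the number of pooled peaks under each name; red points are IDR peaks and grey points the others, spread sideways for legibility. Dashed lines are the medians of all 2780 IDR peaks (110.2) and of all pooled peaks outside the IDR list (24.8). The grey points reach 65.6 at CrebA and 34.9 at crc, and Xbp1 has none.

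Among 15 other bZIP genes, 3 had an IDR summit within 1000 bp of a TSS (20.0%), against 17.9% of all protein-coding genes. These were Irbp18, which encodes a C/EBP-class factor of DNA repair (290.4, shared with APP-BP1), REPTOR, a factor repressed by TORC1 (285.3), and Atf-2, a target of stress kinases (107.1). Another 5 had only weaker pooled peaks near a TSS, namely Xrp1 (37.5), maf-S (37.1), REPTOR-BP (30.0), tj (29.6) and slbo (21.8). Atf6, gt, sisA, CG7786, CG16813, CG16815 and Mabi had none. The median span of the 15 was 1105 bp, against 20050 bp for the 10 members, and the part of gene length in these counts was not tested. Both sets were chosen with earlier results of these data known, so neither is an unselected sample of bZIP genes.

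In the lists of genes from pathways around these factors, 14.3% to 40.0% had an IDR summit within 1000 bp of a TSS. Each list held only 7 to 10 genes, and the background is the same 17.9% of all protein-coding genes throughout. In the JNK pathway 4 of 10 had an IDR summit within 1000 bp of a TSS, led by the kinase genes Mkk4 (463.4, shared with SLIRP2), msn (180.2, shared with RpL8) and Tak1 (101.8). Of 10 unfolded protein response genes 2 did, Hrd3 (436.2, shared with PTPMT1), of the degradation machinery of the endoplasmic reticulum, and Ire1 (199.0, shared with Mrm2), the sensor that splices Xbp1. PEK and Gcn2, the kinases upstream of crc, had only pooled peaks of 27.1 and 46.8 near a TSS.

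Of 10 secretory pathway genes 4 did, led by Sec61alpha (172.3, shared with Daxx), Sec23 (101.7, shared with MTA1-like) and Sec61beta (98.9, shared with Su(var)2-HP2). Of 8 genes for CREB cofactors and protein kinase A signalling 3 did, the phosphodiesterase gene dnc (376.8), the coactivator gene nej (153.8) and Pka-C1 (85.2, shared with hoip). Among 10 clock genes 2 did, the kinase genes sgg (275.1) and dco (187.7), both of which also act far outside the clock, while per and tim had only pooled peaks of 27.9 and 34.2 near a TSS. Of 7 partners and targets of cnc 1 did, Keap1 (169.1, shared with kuk), and its partner gene maf-S did not. Where a second gene is named, its TSS is also within 1000 bp of the summit and the peak cannot be assigned to either.

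**Figure D4:**
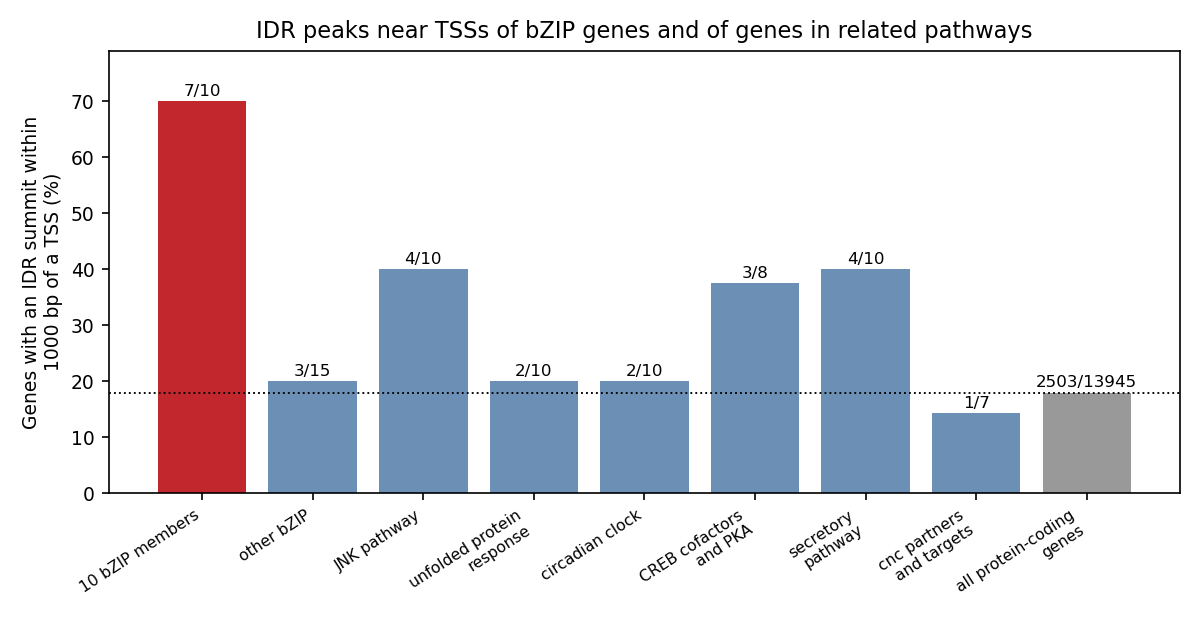
Percent of genes with an IDR summit within 1000 bp of a TSS, for the 10 bZIP genes (red), other bZIP genes and 6 pathway lists (blue) and all protein-coding genes (grey); the numbers above the bars are genes with a summit over genes in the list, and the dotted line is the share of all protein-coding genes. The 10 bZIP genes stand at 70.0%, the lists between 14.3% and 40.0%, and all protein-coding genes at 17.9%.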

How the data were processed

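Chromatin immunoprecipitation of Ets65A-eGFP was carried out on 3 biological replicates. Peak lists were deposited per replicate, for the pooled replicates and after an IDR threshold, each against a control, per the file headers and labels. The deposited signal value is the authors' score, and the deposited q-value of each peak is given as −log10 q. No source used here names the aligner, the caller, the IDR threshold or the scale of the score. Only the dm6 lists were used; the dm3 lists, alignments and control were not analysed here.

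Peaks were assigned by summit to the genes in release 115 of Ensembl (BDGP6.54, dm6) with Python 3.11.15, pandas 2.3.3 and pysam 0.24.0; TSSs of all transcripts of a gene were used. The replicate peak of a pooled peak was the strongest one overlapping it by at least 1 bp, and ranks follow the signal value. The same replicate peak could thus be looked up again, which happened 21 times. Motifs were sought as exact letters on both strands within 100 bp of a summit. The 10 genes, the 7 gene lists (70 entries) and 14 motifs were chosen with earlier results of these data known, and 4 more motifs after the data were seen, so no test was run and counts stand beside their background. Named genes were all members, other bZIP genes with a peak and up to 3 bound genes of highest signal per further list. The other bZIP genes without a peak, and PEK, Gcn2, per and tim, were named outside that rule, after their values were seen. The assignment and motif search were tested on simulated data. Replicates are biological per the labels; their spread is the error given.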

Additional observations from a re-analysis of the deposited data

How the results depend on the processing

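Of 49 alternative settings of 7 counts and medians, 43 gave a count within 1.5 times the one reported, or a median that moved by less than the replicate spread (0.258 of its value), and 6 did not. The 7 genes with an IDR summit within 1000 bp of a TSS became 4 at 250 bp and 4 with the 1390 strongest IDR peaks alone. Those also left 7 of the 12 IDR peaks, with a median signal value of 150.6 in place of 115.4. A −log10 q of at least 2 left 24 of the 96 pooled peaks. With all pooled peaks counted, 8 of the other bZIP genes had a peak near a TSS in place of 3. In alternatives chosen after seeing the data, 2000 bp gave 8 genes, and replicate summits required within 100 bp gave 6 peaks strong in all replicates in place of 8. Each replicate was also left out in turn. The IDR peaks were then replaced by peaks of 1 remaining replicate, among its strongest 2780, that overlapped any of the other's strongest 2780. This gave 5 to 6 genes near a TSS, 7 to 8 with the gene body and 8 to 13 peaks. The strongest pooled peaks overlapping them had median signal values of 126.7 to 138.7. Of the 12 IDR peaks, 8 to 10 were then strong in both remaining replicates, and 3 other bZIP genes had a peak each time. The cause of these changes was not tested, apart from the smaller number of peaks that the stricter settings keep. No paired analysis was possible because all samples form 1 group and no test was run. Depth is unknown, so no limit of detection can be given.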
